A study of Mus musculus with 6 samples.

Results

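Wild-type KSL cells of adult bone marrow were set against wild-type KSL cells of fetal liver, as 3 of the 6 arrays of a series on mouse haematopoietic stem cells. KSL cells are c-Kit positive, Sca-1 positive and negative for lineage markers, and this sorted fraction holds the stem cells of the blood. The 3 arrays were chosen by genotype label alone, without use of any measured value. The bone marrow group had 2 arrays from cells labelled CreERT, Tif1bw/w, taken from adult bone marrow. The fetal liver group had 1 array from cells labelled Tie2-Cre, Tif1bw/w. Tif1b, listed as Trim28 in the reference, encodes a chromatin corepressor, and w/w stands for 2 wild-type alleles. Tie2-Cre drives the recombinase in endothelial and blood-forming cells, and CreERT is a form of it that needs an added ligand, of which the labels say nothing. The other 3 arrays, 2 of bone marrow and 1 of fetal liver, held cells with floxed Tif1b alleles, called KO here, and serve below as a second set of arrays of the same tissues. All mice were labelled C57BL6 or C57/BL6, and no age, sex or number of animals was given.

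The genotype label of bone marrow WT replicate 2 reads Tif2b, taken here as the same gene. One description line of bone marrow WT replicate 1 names Hp1a-knockdown, c-Kit positive, lineage-negative cells, while its other labels give KSL WT. Its scanner file matched its own column of the authors' value table within 1% for 1.404% of probes, against 100% on the other 5 arrays. The table column correlated across probes with bone marrow WT replicate 2 at r = 0.9856 and the scanner file at r = 0.9291. Values of this array are therefore those of the table, and directions were also read from replicate 2 alone. Tissue, Cre driver, age and slide cannot be told apart in this comparison, since each tissue carried its own driver and each wild-type array lay on its own slide. The labels do not say which animals each array came from. Sex-linked genes, given further on, were opposite on the 2 bone marrow arrays, so these are not repeats of one RNA, and the p-values measure only the spread between these arrays.

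Blood stem cells expand in the fetal liver and move to the bone marrow around birth, where most of them become quiescent within the first weeks of life. A fetal programme around the RNA-binding protein Lin28b, which blocks maturation of let-7 microRNAs, is known to be shut down in the same period, and adult stem cells give more platelet-primed and fewer fetal-type progeny. The sorted KSL fraction also holds multipotent progenitors, so its RNA reflects stem cells together with their first descendants.

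Levels are log2 signals relative to the 75th percentile of each array, so that 0 is the signal of a probe at that percentile. Differences are bone marrow WT minus fetal liver WT, given with the standard error (SE) of the limma fit. That fit pooled the spread of the 2 bone marrow WT and the 2 bone marrow KO arrays and assumed that the lone fetal liver array varies like them. The bone marrow arrays had 26009 (replicate 1) and 31420 (replicate 2) probes above background, against 24383 on the fetal liver array. The faintest level above background was -3.68 and -4.97 on the bone marrow arrays and -3.23 on the fetal liver array, so a gene below background can read lower in bone marrow for that reason. A gene not above background in 1 tissue therefore has a bound, written as at least N-fold.

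Lin28b, which maintains the fetal state by holding let-7 microRNAs back, was among the genes furthest apart between the tissues. It is shown with the let-7 family because all 8 let-7 5p sequences in RefSeq (GRCm38.p6) share the seed that recognises targets. The mature sequences below run 5′ to 3′, with the seed (bases 2 to 8) in capitals. In the hairpin of let-7g the capitals mark GGAG, the letters that LIN28 proteins are known to bind in the loop. Of the 11 let-7 hairpins searched, 9 held these letters somewhere in their sequence. That count is not one of loop sites, since the mature let-7e sequence below holds GGAG itself.
mmu-let-7a-5p (chr13:48538239-48538260, minus strand): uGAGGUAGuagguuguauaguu
mmu-let-7b-5p (chr15:85707325-85707346, plus strand): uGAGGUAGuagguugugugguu
mmu-let-7e-5p (chr17:17830366-17830387, plus strand): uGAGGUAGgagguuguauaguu
mmu-let-7g-5p (chr9:106178846-106178867, plus strand): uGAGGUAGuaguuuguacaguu
Mirlet7g hairpin (chr9:106178840-106178927, plus strand): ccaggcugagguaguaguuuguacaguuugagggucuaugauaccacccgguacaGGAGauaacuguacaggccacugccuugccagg
The microRNAs themselves were not among the values analysed here.

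Of 13005 genes tested, 866 (6.66%) passed in limma, with 0.05 as the limit for the Benjamini-Hochberg adjusted p. Higher in bone marrow were 362 genes (2.78%) and lower were 504 (3.88%), and 2911 genes had an unadjusted p under 0.05. All 866 went the same way on both bone marrow arrays. The scanner file of replicate 2 gave the same directions for all 866. It matched its table column within 1% for 100% of probes, so it rereads the same values and is no separate check. Replicate 2 is also part of the mean that was tested. The median difference of all tested genes was -0.26. It was -0.03 after quantile normalization and -0.20 after scaling to the median of probes above background on all arrays, and group medians below are to be read against it. Both bone marrow arrays lay above fetal liver for 29.4% of tested genes and below it for 54.6%.

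Of the 362 higher genes, 193 were above background on all 3 wild-type arrays and 169 were not above background in fetal liver WT. Of the 504 lower genes, 218 were above background on both bone marrow arrays, 68 on 1 of them and 218 on neither. A gene tested only because 1 tissue showed it had to differ, so the same counts are given for the 11589 genes above background on all 3 arrays, of which 1.67% were higher and 1.88% lower. Of the 218 lower genes on neither bone marrow array, 88 were above background on the fetal liver KO array and 130 were not, and 121 were above background on the fetal liver WT array alone of all 6. With every array held to a common floor at the fetal liver limit, a setting chosen after seeing the data, 571 genes passed, 145 higher and 426 lower.

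**Figure D1:**
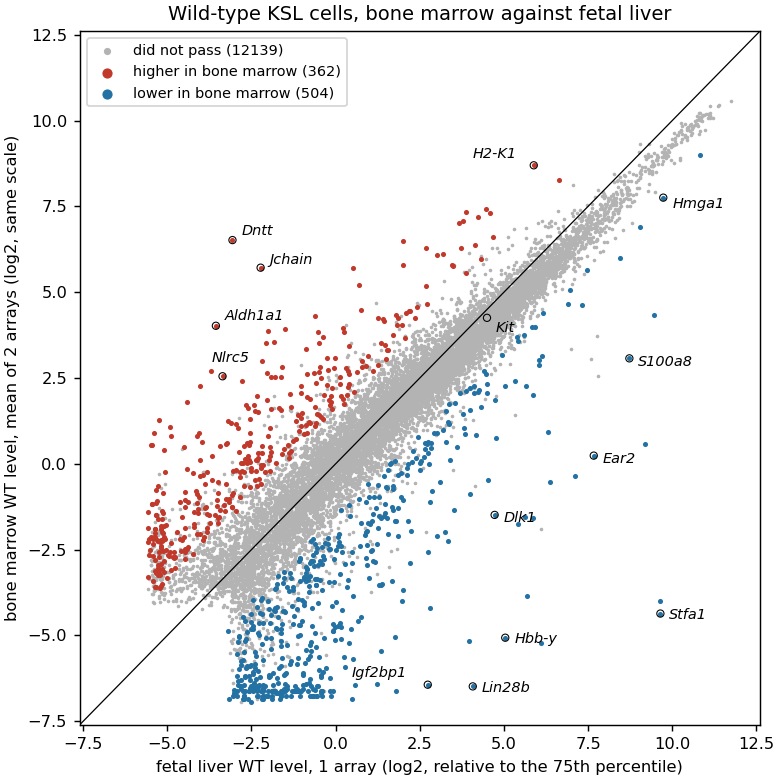
Level of each of 13005 tested genes in fetal liver WT (x axis, 1 array) and bone marrow WT (y axis, mean of 2 arrays), in log2 units relative to the 75th percentile. The line marks equal levels. Genes that passed lie off the line on both sides (362 above in red, 504 below in blue), and the row of blue points along the bottom holds genes below background in bone marrow.

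Kit, the gene of the sorting marker c-Kit, was at 4.16 and 4.35 on the bone marrow arrays and 4.50 on the fetal liver array. Its difference of -0.24 ± 0.31 (SE) did not pass, and its sign turned after quantile normalization (0.10) and with normexp background correction (0.051). Ly6a, the gene of Sca-1, was at 3.36 and 4.75 in bone marrow and 0.31 in fetal liver, a difference of 3.75 ± 1.096 that did not pass (adjusted p = 0.129). Whether Ly6a passed depended on which arrays entered the fit. Both sorting genes were above background on all 3 arrays. Trim28 was at 5.18 and 5.54 in bone marrow WT and 5.97 in fetal liver WT, and at 1.28, 0.75 and 1.67 on the 3 KO arrays, and its tissue difference of -0.61 ± 0.38 did not pass. Ptprc, which encodes CD45, an antigen of leukocytes in general and not of a single lineage, rose by 1.51 ± 0.29 (adjusted p = 0.0481). Of 7 tested genes listed as lineage gate markers it alone passed, beside 2.78% of all tested genes higher, and 6 did not pass. Without either bone marrow WT array 0 passed. The differences of those 6 lay between -1.95 and -0.09.

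Genes of the fetal stem cell programme were lower in bone marrow as a group. Of 14 tested members 11 were lower in bone marrow WT, beside 3.88% of all tested genes, and 0 were higher. Below fetal liver on both arrays lay 13, beside 54.6% of all tested genes. The list's median difference was -3.67, beside -0.26 over all tested genes, and -3.54 and -3.89 in replicates 1 and 2. Of its 7 members above background on all 3 arrays, 5 were lower, beside 1.88% of all such genes. In whole sorted populations, fewer cells with a gene's RNA and less of that RNA per cell cannot be told apart.

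Lin28b was at -6.16 and -6.80 on the bone marrow arrays, not above background on either, and at 4.07 on the fetal liver array. It fell at least 338-fold (adjusted p = 0.00774), and a second Lin28b probe differed by -6.33 in measured signal. Igf2bp1, which encodes an mRNA-binding protein of fetal tissues, was at -6.06 and -6.80 in bone marrow and 2.74 in fetal liver, at least 134-fold lower (adjusted p = 0.00774). The related Igf2bp3 was at -6.27 and -6.97 in bone marrow and 1.80 in fetal liver, at least 69.96-fold lower (adjusted p = 0.00774). Neither bone marrow array showed any of these 3 genes above background. Igf2bp2, the third member of that family, stayed above background in both tissues, at -0.68 and -0.88 in bone marrow and 2.88 in fetal liver, and fell by 3.65 ± 0.35 (adjusted p = 0.0103).

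Hmga2, a chromatin architecture gene and a known let-7 target, was at -0.31 and -0.63 in bone marrow and 4.53 in fetal liver. It fell by 5.01 ± 0.39 (adjusted p = 0.00849), and a second probe differed by -5.26. Its relative Hmga1 was at 7.94 and 7.56 in bone marrow and 9.73 in fetal liver, and fell by 1.98 ± 0.37 (adjusted p = 0.0439). Arid3a, a transcription factor gene that is also a let-7 target, was at 2.29 and 2.26 in bone marrow and 5.03 in fetal liver and fell by 2.76 ± 0.31 (adjusted p = 0.0120). Plag1, a zinc finger factor gene, fell at least 5.79-fold (adjusted p = 0.0436).

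Imprinted genes and a growth factor gene of the list were lower as well. Dlk1, a transmembrane protein gene of the imprinted Dlk1-Meg3 cluster, was at -1.56 and -1.42 in bone marrow and 4.72 in fetal liver and fell by 6.21 ± 0.38, a 74.1-fold difference (adjusted p = 0.00774). Igf2, the fetal growth factor gene, was not above background in bone marrow (-6.16 and -5.65) and close to the limit in fetal liver (-2.64), at least 3.23-fold lower (adjusted p = 0.0390). Mest, another imprinted gene, was at -6.27 and -6.97 in bone marrow and -2.94 in fetal liver, at least 2.61-fold lower (adjusted p = 0.0132). Of 19 tested imprinted genes on a separate list, these and Grb10, a growth factor receptor adaptor gene that fell by 2.73 ± 0.33 (adjusted p = 0.0145), were the 4 that passed, all lower. That list shares Dlk1, Mest and Igf2 with the fetal programme, and 3.88% of all tested genes were lower.

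The 3 tested members that did not pass were Lin28a, Plagl1 and Ezh2. Lin28a, the paralogue of Lin28b, was at -0.92 and -0.52 in bone marrow and 1.77 in fetal liver, a difference of -2.48 ± 0.53 (adjusted p = 0.0604). Plagl1 was at -2.08 and -5.02 in bone marrow and -0.09 in fetal liver, so its bone marrow arrays were further apart from each other than replicate 1 was from fetal liver. Ezh2, which encodes the histone methyltransferase of polycomb repressive complex, was at 3.69 and 3.55 in bone marrow and 3.45 in fetal liver, a difference of 0.17 ± 0.36. Sox17, the endodermal and fetal stem cell factor gene, was not above background in either tissue and was not tested.

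**Figure D2:**
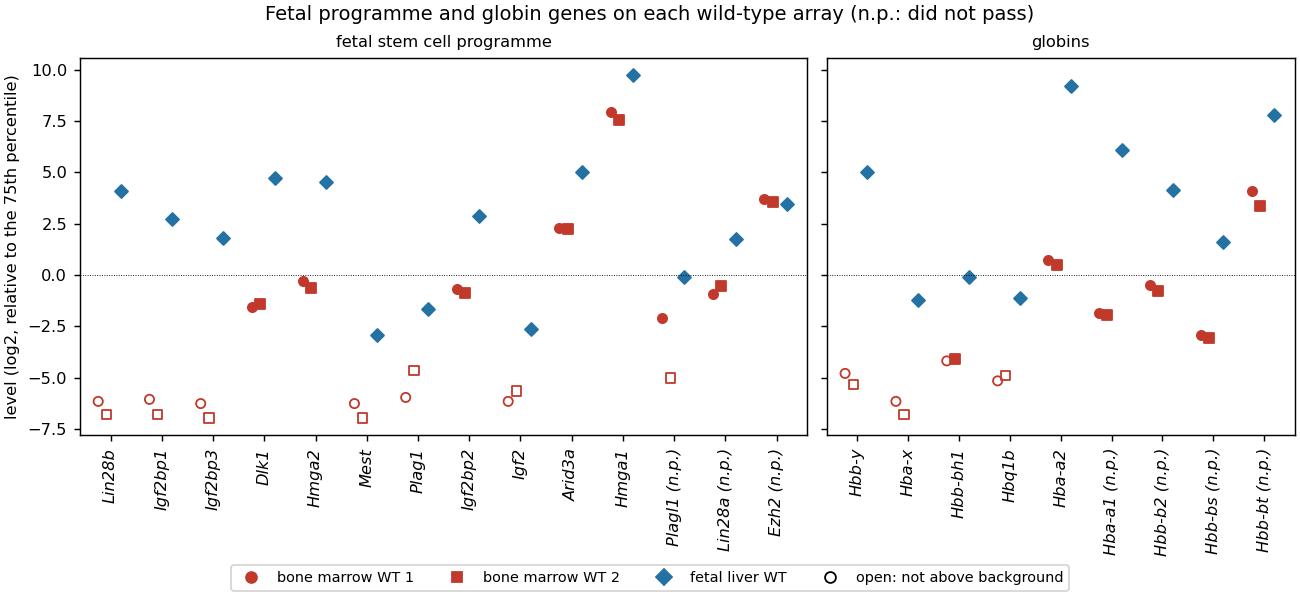
Level on each wild-type array (y axis, log2 relative to the 75th percentile) for the 14 tested genes of the fetal stem cell programme and the 9 tested globin genes, with bone marrow replicates 1 and 2 in red and fetal liver in blue. Open symbols are not above background. Fetal liver lies above both bone marrow arrays for every gene drawn except Ezh2.

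Globin genes were lower in bone marrow for 5 of 9 tested, beside 3.88% of all tested genes. All 9 lay below fetal liver on both bone marrow arrays, beside 54.6% of all tested genes, at a median difference of -4.77. Of the 5 above background on all 3 arrays 1 was lower. Hbb-y, the embryonic beta-like globin gene of primitive red cells, was at -4.80 and -5.33 in bone marrow, not above background, and at 5.04 in fetal liver. It fell at least 661-fold (adjusted p = 0.00774), and its second probe differed by -10.23 in measured signal. Hbb-bh1, another embryonic beta-like gene, was at -4.19 and -4.09 in bone marrow and -0.11 in fetal liver and fell by 4.03 ± 0.30 (adjusted p = 0.00774). Hba-x, the embryonic alpha-like gene, fell at least 8.69-fold (adjusted p = 0.0103), and Hbq1b, a theta-like globin gene, fell at least 8.92-fold (adjusted p = 0.00868).

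The adult globin genes differed with a wider error. Hba-a2, an adult alpha-globin gene, was at 0.72 and 0.46 in bone marrow and 9.19 in fetal liver and fell by 8.601 ± 1.62 (adjusted p = 0.0443). The adjusted p of Hba-a1, Hbb-b2, Hbb-bs and Hbb-bt, whose differences lay between -7.998 and -4.05, was 0.0525 to 0.0680. Adult globin genes are near-identical copies, so their probes may read each other's RNA. All 9 genes passed with the slide as a random block, and also without either bone marrow WT array, whereas with the scanner files of all arrays 1 did. Hbq1a was above background in neither tissue.

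Of 22 other erythroid genes tested 0 passed in limma, beside 6.66% of all tested genes, and the median difference was -1.12. On both bone marrow arrays 17 lay below fetal liver and 5 above it, against 54.6% and 29.4% of all tested genes. Their differences ran from -6.29 to 3.00. Without bone marrow WT replicate 2, 7 were lower and 1 higher, and from the 3 WT arrays alone 9 were lower and 1 higher. Alas2, the erythroid enzyme gene of haem synthesis, was not above background in bone marrow (-6.27 and -6.97) and was at -0.33 in fetal liver, at least 15.95-fold apart, and did not pass (adjusted p = 0.0898). Slc4a1, which encodes the anion exchanger of red cells, was at -3.23 and -3.18 in bone marrow and 1.22 in fetal liver, a difference of -4.42 ± 0.97 (adjusted p = 0.0657). Summed over the 22 genes as multiples of each array's 75th percentile signal, the erythroid level was 302 and 263 on the bone marrow arrays and 360 on the fetal liver array, and that of the 9 globin genes was 20.0 and 12.7 in bone marrow and 927 in fetal liver. The part of red cells in the globin differences was not tested.

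Genes of mature granulocytes included the widest differences of all. Stefin A genes encode cysteine protease inhibitors abundant in neutrophils. All 9 tested genes of this cluster, which are neighbours on chromosome 16 in RefSeq, were lower in bone marrow. None of the 9 was above background on both bone marrow arrays, so they were tested through fetal liver and had to differ, and their count is a description. Stfa1 was at -6.51 and -2.21 in bone marrow and 9.65 in fetal liver and fell by 14.01 ± 1.75 (adjusted p = 0.0155). Cstdc5 was at -6.27 and -1.74 in bone marrow and 9.64 in fetal liver and fell by 13.65 ± 1.79 (adjusted p = 0.0174). Both bone marrow arrays were far below fetal liver. Only replicate 2 was above background for these 2 genes, at levels that also exceed the limit of replicate 1 (-3.68). The bone marrow arrays thus differed from each other in level. Each fall averages in a replicate 1 value below background, so its size is uncertain.

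The other members of the cluster also lay below fetal liver on both bone marrow arrays. Cstdc4 was at -6.39 and -4.04 in bone marrow and 6.11 in fetal liver and fell by 11.33 ± 0.95 (adjusted p = 0.00888). Stfa3 fell by 9.55 ± 0.99, Stfa2l1 fell by 9.14 ± 0.97, Csta2 fell by 6.80 ± 0.84 and Stfa2 fell by 4.87 ± 0.73, each above background on 1 of the 2 bone marrow arrays. Csta3 and Cstdc6, above background on neither, fell at least 28.4-fold and 6.35-fold (adjusted p = 0.0246 and 0.00774). These genes are near-identical copies, so how much each of them contributed is uncertain.

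Of 22 tested neutrophil genes 7 were lower, beside 3.88% of all tested genes, and 0 higher, with a median of -0.74. On both bone marrow arrays 13 lay below fetal liver and 6 above it, beside 54.6% and 29.4% of all tested genes. The largest rise, 2.84, did not pass. With the slide as a random block 8 were lower and 1 higher, and after quantile normalization 7 and 1. The median was -0.26 in replicate 1 and -1.33 in replicate 2. Of the 15 members above background on all 3 arrays 3 were lower. S100a8, a subunit of the calcium-binding protein calprotectin, was at 2.97 and 3.18 in bone marrow and 8.73 in fetal liver. It fell by 5.65 ± 0.37, or 50.3-fold (adjusted p = 0.00774). Its partner S100a9 was at 4.39 and 4.27 in bone marrow and 9.47 in fetal liver and fell by 5.14 ± 0.33 (adjusted p = 0.00774). These values were nearly equal on the 2 bone marrow arrays. Fcnb, which encodes a lectin of neutrophil granules, fell by 6.99 ± 0.79, and Camp, the antimicrobial peptide cathelicidin, fell by 3.88 ± 0.30 (adjusted p = 0.0124 and 0.00841).

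Of 20 tested genes of the mast cell, basophil and eosinophil list, 6 were lower and 1 higher, at a median of -1.59. Over all tested genes 3.88% were lower and 2.78% higher. Without bone marrow WT replicate 2, 9 were lower and 2 higher, and the median without replicate 1 was -0.27. Ear2, an eosinophil ribonuclease gene, was at 0.37 and 0.11 in bone marrow and 7.67 in fetal liver and fell by 7.43 ± 0.48, or 172-fold (adjusted p = 0.00774). The differences of Ear1, Ear6 and Ear10, close relatives of it that also fell, were -7.43 ± 0.52, -6.88 ± 0.83 and -7.17 ± 0.48. Prg3, an eosinophil granule protein gene, fell by 7.19 ± 0.80, and Epx, eosinophil peroxidase, fell by 4.86 ± 0.74 (adjusted p = 0.0120 and 0.0252). Il5ra, the receptor gene of the main eosinophil growth factor, fell by 4.04 ± 0.72 (adjusted p = 0.0384).

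Fcer1a, the alpha chain of the IgE receptor of mast cells and basophils, was at 2.71 and 2.13 in bone marrow and -2.77 in fetal liver. It rose by 5.19 ± 0.53, or 36.5-fold (adjusted p = 0.0104). Other mast cell and basophil genes did not pass. Ms4a2, the beta chain of the same receptor, differed by -2.01 ± 0.65, Hdc, the enzyme gene of histamine synthesis, by -3.65 ± 0.86, and Cpa3, a mast cell protease gene, by -1.16 ± 0.74. Members of the mast cell, basophil and eosinophil list that did not pass went both ways, with differences between -5.22 and 6.49. Of its 20 tested genes 6 lay above fetal liver on both bone marrow arrays and 11 below, beside 29.4% and 54.6% of all tested genes. In the monocyte and dendritic list 3 of 22 genes were lower, beside 3.88% of all tested genes, and 0 higher. The median was -0.25, close to that of all tested genes. Without bone marrow WT replicate 2, 7 were lower and 3 higher. The 3 were Cd209a, a C-type lectin gene that fell at least 8.46-fold, Adgre1, which encodes the macrophage marker F4/80 and fell by 3.45 ± 0.50, and Marco, a scavenger receptor gene of macrophages that fell by 2.43 ± 0.42 (adjusted p = 0.00824, 0.0225 and 0.0354). Olr1, another scavenger receptor gene, was at -5.65 and -7.17 in bone marrow and 1.22 in fetal liver and fell at least 46.9-fold (adjusted p = 0.0103). Summed in the same way as the erythroid list, the neutrophil level was 2600 and 1400 in bone marrow and 5127 in fetal liver, the mast cell, basophil and eosinophil level 48.6 and 57.3 in bone marrow and 782 in fetal liver, and the monocyte and dendritic level 562 and 338 in bone marrow and 437 in fetal liver. The part of mature myeloid cells in these differences was not tested.

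Hepatocyte genes were lower in bone marrow for 7 of 13 tested, beside 3.88% of all tested genes, and higher for 0, at a median of -3.66. None of these 7 was above background on both bone marrow arrays. They were tested through fetal liver and had to differ, so their count is a description. Liver parenchyma surrounds the blood-forming cells of the fetal liver. Alb, serum albumin, was at -6.27 and -6.97 in bone marrow and -0.42 in fetal liver and fell at least 14.99-fold (adjusted p = 0.0103). Rbp4, the plasma retinol carrier, was at -5.02 and -5.17 in bone marrow and 0.17 in fetal liver and fell at least 22.6-fold (adjusted p = 0.0105). Both lay near the 75th percentile of the fetal liver array and below background in bone marrow. Ahsg, Ttr and the fibrinogen chain genes Fgb and Fgg fell at least 7.14-fold, 4.28-fold, 5.12-fold and 2.23-fold, and Serpina1a, a protease inhibitor gene, fell by 4.37 ± 0.46.

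None of the 6 hepatocyte genes above background on all 3 arrays passed. Afp, alpha-fetoprotein, was at 1.73 and 1.26 in bone marrow and 2.89 in fetal liver, a difference of -1.39 ± 0.38 (adjusted p = 0.113). With the genes above background on fetal liver WT alone left out, a setting chosen after seeing the data, 3 of 9 hepatocyte genes were lower. The summed hepatocyte level was 80.4 and 46.03 in bone marrow and 52.7 in fetal liver, with 6 and 7 of the 13 genes above background on the bone marrow arrays and 13 on the fetal liver array. The part of hepatocyte RNA in the fetal liver array was not tested.

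Stromal and endothelial lists were mixed. Postn, a matrix protein gene of mesenchymal cells, fell at least 10.3-fold (adjusted p = 0.0103), and Fn1, fibronectin, was at -1.48 and -1.86 in bone marrow and 1.76 in fetal liver and fell by 3.43 ± 0.35 (adjusted p = 0.0104). They were the 2 lower of 14 tested stromal genes, and 1 was higher. Of 18 tested endothelial genes 2 were lower and 1 higher. Both lists are to be read beside 3.88% lower and 2.78% higher over all tested genes. Ramp2, a receptor partner in endothelial cells, was at -0.91 and -1.34 in bone marrow and 2.80 in fetal liver and fell by 3.93 ± 0.64, and Ecscr, an endothelial surface protein gene, fell by 3.79 ± 0.62 (adjusted p = 0.0297 and 0.0302). The higher members were Thy1 and Vwf, which also stand on the stem cell surface list.

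**Figure D3:**
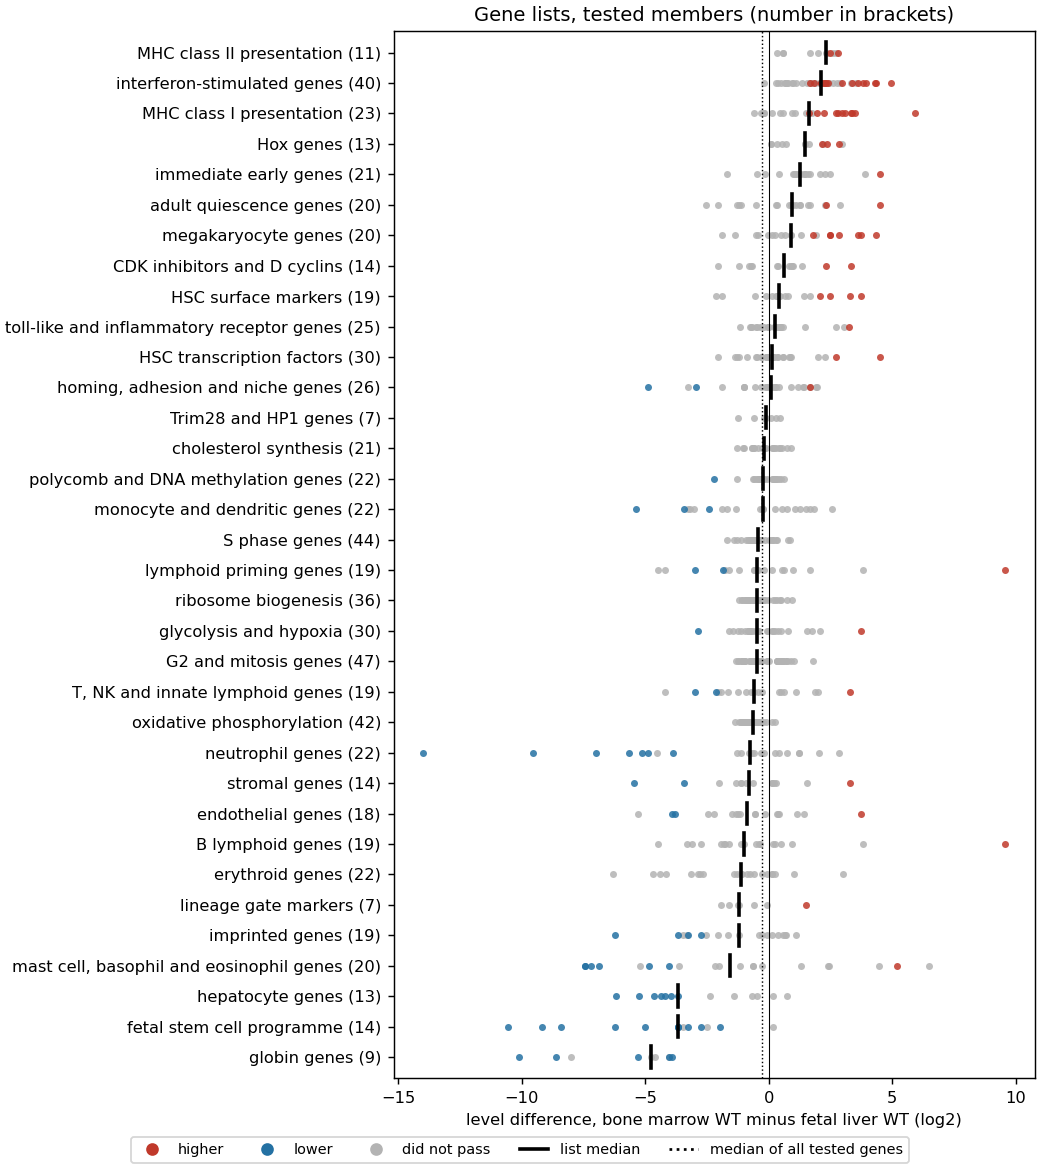
Level difference, bone marrow WT minus fetal liver WT (x axis, log2), of each tested member of the gene lists with at least 5 tested members, one list to a line and ordered by median. Red and blue points passed, grey points did not, thick bars are list medians and the dotted line is the median of all tested genes at -0.26. MHC and interferon lists stand at the right-hand end and the hepatocyte, fetal programme and globin lists at the left.

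Antigen presentation genes were higher in bone marrow. MHC class I molecules show peptides from inside a cell to T cells. Of 23 tested genes of this pathway 11 were higher, beside 2.78% of all tested genes, and 0 lower, at a median of 1.64. Above fetal liver on both bone marrow arrays lay 17, beside 29.4% of all tested genes. Of the 22 members above background on all 3 arrays 10 were higher, beside 1.67% of all such genes. Nlrc5, the transactivator of class I genes, was at 2.35 and 2.75 in bone marrow and -3.36 in fetal liver, not above background there, and rose at least 54.9-fold (adjusted p = 0.00774). A second Nlrc5 probe differed by 0.46, so the probes of this gene disagree on the size.

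The classical heavy chain gene H2-K1 was at 8.79 and 8.60 in bone marrow and 5.89 in fetal liver and rose by 2.81 ± 0.31, or 7.01-fold (adjusted p = 0.0121). H2-D1 was at 7.38 and 7.47 in bone marrow and 4.46 in fetal liver and rose by 2.96 ± 0.30 (adjusted p = 0.0103). B2m, the light chain shared by all class I molecules, was at 8.36 and 8.18 in bone marrow and 6.63 in fetal liver and rose by 1.64 ± 0.31 (adjusted p = 0.0460). The 2 bone marrow arrays lay much closer to each other than to fetal liver for each of these.

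The non-classical heavy chain genes H2-Q6, H2-Q7 and H2-Q10 rose by 3.08 ± 0.35, 3.36 ± 0.31 and 3.33 ± 0.36, and H2-T23 and H2-M3 by 2.71 ± 0.38 and 2.22 ± 0.38. H2-Q8, which is outside the list, was at 3.91 and 3.86 in bone marrow and -1.999 in fetal liver and rose by 5.88 ± 0.30, or 58.95-fold (adjusted p = 0.00774). Heavy chain genes of one locus are close relatives and their probes may read each other's RNA. The peptide transporter genes moved with them. Tap1 was at 2.50 and 2.76 in bone marrow and -0.86 in fetal liver and rose by 3.48 ± 0.31 (adjusted p = 0.00986). Tap2 rose by 1.95 ± 0.37 (adjusted p = 0.0453). Tap1, Tap2 and the class II genes H2-DMa and H2-Ab1 are neighbours on chromosome 17.

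MHC class II molecules, which present peptides taken up from outside, had a list median of 2.33, and of 2.06 and 2.46 in replicates 1 and 2. Of 11 tested genes 2 were higher, and 10 lay above fetal liver on both bone marrow arrays, beside 2.78% and 29.4% of all tested genes. Without bone marrow WT replicate 1 the count was 1, and without replicate 2 it was 5. H2-Ab1, a classical beta chain gene, was at 5.21 and 5.15 in bone marrow and 2.70 in fetal liver and rose by 2.49 ± 0.30 (adjusted p = 0.0146). H2-DMa, a chain of the peptide-loading chaperone, was at 4.42 and 4.03 in bone marrow and 1.41 in fetal liver and rose by 2.82 ± 0.33 (adjusted p = 0.0135). Cd74, the invariant chain, was at 1.48 and 3.37 in bone marrow and -0.19 in fetal liver, and its difference of 2.62 ± 1.99 did not pass. The class II partner H2-Aa was at -0.36 and -0.13 in bone marrow and -2.95 in fetal liver, not above background there, at least 6.56-fold apart, and did not pass (adjusted p = 0.05004).

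Interferon-stimulated genes, whose products act against viruses, were higher as well. Of 40 tested 16 were higher, against 2.78% of all tested genes, and 0 lower. Above fetal liver on both bone marrow arrays lay 38, against 29.4% of all tested genes. The list's median was 2.11, and 1.76 and 2.45 in replicates 1 and 2. Of its 33 members above background on all 3 arrays 12 were higher, against 1.67% of all such genes. With the common floor 4 of 40 passed, and with the filter on all arrays of the groups 8 of 33.

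Cxcl10, an interferon-induced chemokine, was at 1.89 and 2.09 in bone marrow and -2.34 in fetal liver and rose by 4.33 ± 0.31, or 20.1-fold (adjusted p = 0.00774). Rsad2, which encodes the antiviral enzyme viperin, was at 1.04 and 1.54 in bone marrow and -2.53 in fetal liver and rose by 3.83 ± 0.43 (adjusted p = 0.0124). Oas3, a sensor of double-stranded RNA, was at -0.97 and 0.41 in bone marrow and -4.23 in fetal liver, below background there, and rose at least 7.72-fold (adjusted p = 0.0317). Both bone marrow arrays were above background for all 3. Ifi44 rose at least 17.4-fold and Gbp6 at least 4.20-fold (adjusted p = 0.0240 and 0.00774). Gbp2 and Gbp3, guanylate-binding protein genes that lie beside each other on chromosome 3 with Gbp5 and Gbp7, rose by 2.95 ± 0.35 and 3.61 ± 0.38, and Gbp5 and Gbp7 rose by 3.53 ± 0.30 and 2.11 ± 0.41.

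Promoters of the higher genes were searched for GAAANNGAAA, the core of the interferon-stimulated response element, on both strands of the window from 250 bases before to 50 bases after the start, as RefSeq (GRCm38.p6) gives it. Of 27025 genes with promoters of that length 3.99% held it in at least 1 of them. It was in 37 of the 277 higher genes with a promoter in the table (13.4%), in 14 of 395 lower genes (3.54%) and in 3.58% of tested genes that did not pass. On the interferon-stimulated list 23 of 33 held it (69.7%), in 11 of 14 that passed and 12 of 19 that did not. Outside the interferon and MHC lists it was in 24 of 253 higher genes (9.49%). A match is a description of these letters and not a shown binding site. These 4 promoters of higher genes are shown with the match in capitals, on the strand of the gene and 5′ to 3′, where TTTCNNTTTC is the same motif read on the other strand.
Rsad2 (chr12:26456403-26456702, minus strand): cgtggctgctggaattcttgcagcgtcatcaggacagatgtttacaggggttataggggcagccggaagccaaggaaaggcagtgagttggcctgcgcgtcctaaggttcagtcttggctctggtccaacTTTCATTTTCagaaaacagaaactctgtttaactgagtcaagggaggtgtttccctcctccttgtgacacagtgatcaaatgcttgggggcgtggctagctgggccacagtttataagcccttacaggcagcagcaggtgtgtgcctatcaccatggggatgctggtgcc
Oas3 (chr5:120777610-120777909, minus strand): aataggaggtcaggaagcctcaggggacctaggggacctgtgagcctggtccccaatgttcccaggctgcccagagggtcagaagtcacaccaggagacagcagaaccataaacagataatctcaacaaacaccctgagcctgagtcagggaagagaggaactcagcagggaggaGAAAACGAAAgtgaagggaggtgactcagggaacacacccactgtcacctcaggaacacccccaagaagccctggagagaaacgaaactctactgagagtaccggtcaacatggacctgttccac
Cxcl10 (chr5:92348840-92349139, minus strand): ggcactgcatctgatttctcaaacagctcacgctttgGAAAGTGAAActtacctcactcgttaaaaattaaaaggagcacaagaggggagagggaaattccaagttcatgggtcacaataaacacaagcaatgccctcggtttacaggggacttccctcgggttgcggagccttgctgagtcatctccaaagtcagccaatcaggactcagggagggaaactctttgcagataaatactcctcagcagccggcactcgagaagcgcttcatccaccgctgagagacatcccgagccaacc
B2m (chr2:122147437-122147736, plus strand): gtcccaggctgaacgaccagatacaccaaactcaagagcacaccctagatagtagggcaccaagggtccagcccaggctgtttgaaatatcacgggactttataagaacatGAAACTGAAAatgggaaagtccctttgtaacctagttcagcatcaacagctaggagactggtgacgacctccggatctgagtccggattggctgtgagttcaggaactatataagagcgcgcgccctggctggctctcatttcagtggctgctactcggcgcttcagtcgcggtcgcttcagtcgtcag
Each of these windows held 1 match, at base 131 in Rsad2, 176 in Oas3, 38 in Cxcl10 and 112 in B2m, counted from the 5′ end of the printed run.

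**Figure D4:**
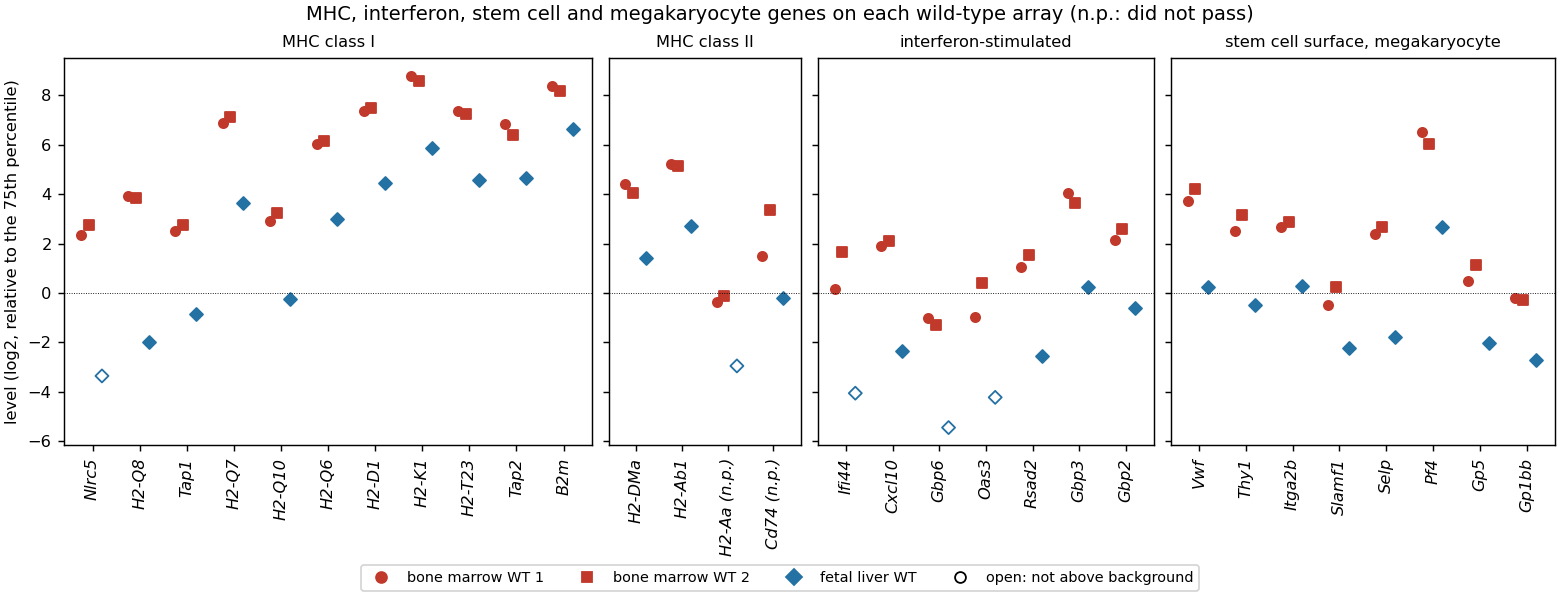
Level on each wild-type array (y axis, log2 relative to the 75th percentile) for MHC class I, MHC class II, interferon-stimulated, stem cell surface and megakaryocyte genes, with bone marrow replicates 1 and 2 in red and fetal liver in blue. Open symbols are not above background. Both bone marrow arrays lie above fetal liver for every gene drawn, and n.p. marks the 2 that did not pass, H2-Aa and Cd74.

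Among stem cell surface genes 4 of 19 tested were higher, beside 2.78% of all tested genes, and 0 lower, at a median of 0.43. Above fetal liver on both bone marrow arrays lay 14, beside 29.4% of all tested genes. Slamf1, the gene of CD150, which marks long-term stem cells, was at -0.49 and 0.22 in bone marrow and -2.23 in fetal liver and rose by 2.09 ± 0.40 (adjusted p = 0.0455). Vwf, von Willebrand factor, a marker of platelet-primed stem cells, was at 3.72 and 4.20 in bone marrow and 0.23 in fetal liver and rose by 3.73 ± 0.59, or 13.3-fold (adjusted p = 0.0274). Thy1, a surface glycoprotein gene, rose by 3.29 ± 0.42 and Itga2b, the platelet integrin gene CD41, by 2.48 ± 0.31 (adjusted p = 0.0157 for both). Cd34, Flt3 and Procr, which mark multipotent progenitors or stem cells, differed by -0.12 ± 0.50, 0.15 ± 0.62 and 0.67 ± 0.39 and did not pass.

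Megakaryocyte genes were higher for 7 of 20 tested and lower for 0, at a median of 0.91. All 20 were above background on all 3 arrays, and 1.67% of all such genes were higher. Pf4, platelet factor, was at 6.52 and 6.04 in bone marrow and 2.69 in fetal liver and rose by 3.60 ± 0.35, or 12.1-fold (adjusted p = 0.0103). Selp, P-selectin, was at 2.38 and 2.67 in bone marrow and -1.80 in fetal liver and rose by 4.32 ± 0.33 (adjusted p = 0.00832). Gp5 and Gp1bb, chains of the platelet receptor for von Willebrand factor, rose by 2.83 ± 0.38 and 2.49 ± 0.30, and Rab27b, a platelet granule trafficking gene, by 1.79 ± 0.29 (adjusted p = 0.0186, 0.0141 and 0.0305). Gp9, another chain of that receptor, was at 3.10 and 3.21 in bone marrow and 3.04 in fetal liver. With the scanner file of bone marrow WT replicate 1 in place of its table column, the list's median turned to -1.19 and Itga2b, Pf4, Gp5 and Rab27b turned below 0, at -1.90, -2.82, -0.39 and -0.59. Without that array 5 of 21 megakaryocyte genes were higher, and without replicate 2 these were 6.

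Dntt and Jchain had the widest gaps between the tissues among the higher genes. Dntt, terminal deoxynucleotidyl transferase, which adds bases at the joins of antigen receptor genes in lymphoid progenitors, was at 7.12 and 5.91 in bone marrow and -3.06 in fetal liver, not above background there. It rose at least 766-fold (adjusted p = 0.00949). Jchain, the joining chain of secreted immunoglobulins, was at 5.04 and 6.38 in bone marrow and -2.23 in fetal liver and rose by 7.94 ± 1.41 (adjusted p = 0.0368). Dntt was the only one of 19 tested B lymphoid genes to pass, where 2.78% of all tested genes were higher and 3.88% lower. The median of that list was -0.995. That median was -0.12 without bone marrow WT replicate 1. Without replicate 2, 4 B lymphoid genes were lower, and from the 3 WT arrays alone 8 were. Rag1, a recombinase gene, was not above background in bone marrow (-5.27 and -4.58) and at -0.45 in fetal liver, at least 12.9-fold apart, and did not pass (adjusted p = 0.0580). Differences of the B lymphoid genes that did not pass lay between -4.48 and 3.83. On both bone marrow arrays 4 of the 19 lay above fetal liver and 10 below, beside 29.4% and 54.6% of all tested genes. Summed as for the erythroid list, the B lymphoid level, Dntt included, was 170 and 96.6 in bone marrow and 51.2 in fetal liver.

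Single lymphoid genes were also found on the lower side. Ccr7, a chemokine receptor gene of lymphocytes and dendritic cells, fell by 2.97 ± 0.45, Id2, a regulator of innate lymphoid cells, fell by 2.12 ± 0.36, and Gimap6, a lymphocyte GTPase gene, fell by 1.85 ± 0.32 (adjusted p = 0.0248, 0.0321 and 0.0339). Of 19 tested T, NK and innate lymphoid genes 2 were lower and 1, Thy1, higher. Of 19 tested lymphoid priming genes 2 were lower and 1, Dntt, higher. Over all tested genes 3.88% were lower and 2.78% higher, and Ccr7 stands on both lists. With the scanner file of bone marrow WT replicate 1 the Ccr7 difference was 0.35.

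Aldh1a1, a retinaldehyde dehydrogenase gene, was at 3.50 and 4.54 in bone marrow and -3.56 in fetal liver and rose at least 152-fold (adjusted p = 0.00774). Gdf15, a stress-induced cytokine gene, was at 3.06 and 1.49 in bone marrow and -4.03 in fetal liver and rose at least 45.4-fold (adjusted p = 0.0120). Clca3a1 and Clca3a2, genes of one chloride channel regulator family, rose at least 32.5-fold and 17.5-fold (adjusted p = 0.0103 and 0.0132). None of these 4 was above background in fetal liver. Npdc1 rose at least 22.7-fold, Rusc2 at least 13.6-fold, Atp8b5 at least 13.7-fold and Osm, the cytokine oncostatin M, at least 16.4-fold. Vldlr, a lipoprotein receptor gene, was at 3.26 and 3.80 in bone marrow and -2.08 in fetal liver and rose by 5.61 ± 0.70 (adjusted p = 0.0156).

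Esr1, the oestrogen receptor gene, rose by 6.01 ± 0.32 and Cngb1, a cyclic nucleotide-gated channel gene, by 6.41 ± 0.42 on their brightest probes (adjusted p = 0.00774 for both). The other probes of both genes disagreed, differing by between -5.53 and 3.80 for Esr1 and between -0.49 and 4.45 for Cngb1, so no bound is given.

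Of 30 tested transcription factor genes of stem cells 2 were higher and 0 lower, at a median of 0.14, where 2.78% of all tested genes were higher. Without bone marrow WT replicate 2, 3 were higher and 1 lower. Nr4a1, an orphan nuclear receptor gene linked to stem cell quiescence, was at 7.06 and 5.94 in bone marrow and 2.01 in fetal liver and rose by 4.49 ± 0.55, or 22.5-fold (adjusted p = 0.0148). Mecom, which encodes the stem cell factor EVI1, was at -2.70 and -2.20 in bone marrow and -5.17 in fetal liver and rose at least 1.71-fold (adjusted p = 0.0199). The Mecom difference was 0.56 on its second probe and -0.33 with normexp background correction.

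Nr4a1 is also an immediate early gene, and that list split the 2 bone marrow arrays. Its median over 21 genes was 2.65 in replicate 1 and -0.09 in replicate 2. Egr1, an immediate early transcription factor gene, was at 6.99 and 4.59 in bone marrow and 3.52 in fetal liver, a difference of 2.27 ± 1.00 that did not pass. Over all tested genes 2.78% were higher. Nr4a1 was the 1 member of 21 to pass, and without replicate 2 these were 13.

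Of 39 Hox genes on the array 13 were tested, and 26 were not above background on all arrays of either tissue. Higher were 3 of the 13, beside 2.78% of all tested genes, and lower 0, at a median of 1.48. Hoxb2 was at 0.35 and 0.13 in bone marrow and -2.59 in fetal liver and rose by 2.83 ± 0.31 (adjusted p = 0.0119). Hoxa10 rose at least 4.50-fold and Hoxb3 at least 2.01-fold (adjusted p = 0.0446 and 0.0222), both below background in fetal liver. Of the 6 Hox genes above background on all 3 arrays 1 was higher, at a median of 0.44. The Hox median was -0.012 with normexp background correction, where Hoxb3 was the middle gene, and -0.80 with no filter.

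Cell cycle inhibitors were tested as a list with the D cyclins, and 2 of 14 were higher, beside 2.78% of all tested genes, and 0 lower. Without bone marrow WT replicate 1 the count was 1. Cdkn1a, the inhibitor gene p21, was at 2.56 and 2.83 in bone marrow and 0.36 in fetal liver and rose by 2.33 ± 0.33 (adjusted p = 0.0204). Cdkn2c, the inhibitor gene p18, was at 1.60 and 1.66 in bone marrow and -1.68 in fetal liver and rose by 3.31 ± 0.32, or 9.92-fold (adjusted p = 0.0103). Cdkn1c, the inhibitor gene p57, went the other way, at -0.20 and -0.09 in bone marrow and 1.91 in fetal liver, a difference of -2.06 ± 0.46 (adjusted p = 0.0684).

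The remaining cell cycle regulators of that list did not pass. Cdkn1b, Cdkn2d and Cdkn3 differed by 0.88, 0.39 and -0.70, and the D cyclin genes Ccnd1, Ccnd2 and Ccnd3 by -1.22, 0.34 and -0.80. Their kinase genes Cdk4 and Cdk6 differed by -0.71 and 1.36. Rb1, Rbl1 and Rbl2, the retinoblastoma family that these kinases act on, differed by 0.97, 0.83 and 0.93. Cdkn2a and Cdkn2b were not tested, since neither tissue was above background on all its arrays.

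Proliferation genes showed no passing member. Of 44 S phase genes and 47 G2 and mitosis genes tested, 0 passed, beside 6.66% of all tested genes. Their medians were -0.44 and -0.49, and 35 and 27 of them lay below fetal liver on both bone marrow arrays, against 54.6% of all tested genes. After quantile normalization the S phase median was -0.06. Ccne1, the cyclin E gene, was furthest apart in S phase, at 3.49 and 3.33 in bone marrow and 5.11 in fetal liver, a difference of -1.70 ± 0.40 (adjusted p = 0.0808). Ttk, a mitotic checkpoint kinase gene, was furthest apart among mitosis genes, at -1.13 and -0.72 in bone marrow and -2.73 in fetal liver, a difference of 1.81 ± 0.37 (adjusted p = 0.0559).

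Among 42 tested oxidative phosphorylation genes 0 passed and 39 lay below fetal liver on both bone marrow arrays, against 54.6% of all tested genes. Their median was -0.65, and -0.11 after quantile normalization. Ndufb8, a subunit gene of respiratory complex I, was furthest apart, at 7.14 and 6.56 in bone marrow and 8.20 in fetal liver (difference -1.35 ± 0.37). Ribosome biogenesis genes (36 tested) and cholesterol synthesis genes (21 tested) also had 0 passing, at medians of -0.47 and -0.18. Over all tested genes 2.78% were higher and 3.88% lower. In the glycolysis and hypoxia list 1 of 30 was higher and 1 lower, and without bone marrow WT replicate 2, 3 and 1. Ndrg1, a hypoxia-induced gene, was at 4.41 and 4.55 in bone marrow and 0.75 in fetal liver and rose by 3.73 ± 0.30 (adjusted p = 0.00868). Slc16a3, a lactate exporter gene, was at 2.07 and 1.67 in bone marrow and 4.73 in fetal liver and fell by 2.86 ± 0.41 (adjusted p = 0.0215).

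Dnmt3b, a de novo DNA methyltransferase gene, was at 4.43 and 4.88 in bone marrow and 6.89 in fetal liver and fell by 2.23 ± 0.34 (adjusted p = 0.0251), the 1 of 22 polycomb and DNA methylation genes to pass, beside 6.66% of all tested genes, and 0 did without bone marrow WT replicate 1. Among 26 homing, adhesion and niche genes 1 was higher and 2 lower, and without replicate 1 these were 0 and 1. Itga6, the integrin chain CD49f of stem cells, rose by 1.66 ± 0.31, whereas Itga9, another integrin chain, fell by 4.89 ± 0.41 and Jam3, a junctional adhesion gene, fell by 2.93 ± 0.51 (adjusted p = 0.0415, 0.00888 and 0.0342). Over all tested genes 2.78% were higher and 3.88% lower. Il1r1, an interleukin receptor gene, rose by 3.25 ± 0.34 (adjusted p = 0.0105), the 1 of 25 inflammatory receptor genes, and without replicate 2 these were 3. Of 7 Trim28 and HP1 genes 0 passed, with Cbx5 at -1.24 ± 0.38 and Cbx3 at 0.47 ± 0.41.

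Sex-linked genes differed between the 2 bone marrow arrays themselves. Xist, the transcript of the inactive X chromosome, was at 1.58 and -6.80 in bone marrow and -0.95 in fetal liver. Ddx3y, on the Y chromosome, was at -6.27 and 1.20 in bone marrow and -0.38 in fetal liver, and Eif2s3y, also Y-linked, at -6.51 and 2.51 in bone marrow and 0.52 in fetal liver. Bone marrow replicate 1 thus showed Xist above background and not the Y-linked genes, replicate 2 the Y-linked genes and not Xist, and the fetal liver array both kinds. None of the 3 passed, and the other 5 sex-linked genes on the array were not tested, since neither tissue had them above background on all its arrays.

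The KO arrays gave the tissue contrast a second time, on other arrays of the same slides and with the same Cre drivers. There 1433 of 13006 genes passed (11.0%), 626 (4.81%) higher in bone marrow KO and 807 (6.20%) lower. Of the 866 genes that passed in WT, 703 were tested in KO, and 684 of them (97.3%) had the same direction there, against 83.9% of the 12513 genes tested in both. Both contrasts came from 1 model with 1 estimate of the spread. Passing in both, in the same direction, were 542 genes, which is 62.6% of the WT calls and 37.8% of the KO calls. The difference between the contrasts, tested as an interaction, was called by limma for 0 of 13498 genes, with 951 at an unadjusted p under 0.05 and a smallest adjusted p of 0.149. It was called for 274 genes with the slide as a random block, 88 after quantile normalization and 196 with the common floor.

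Fetal programme members that passed in WT had the same sign in KO in 11 of 11 cases, and the list's median was -4.08 in KO and -3.67 in WT. The 11 MHC class I genes and the 7 megakaryocyte genes that passed also kept their sign, with list medians of 1.20 and 2.71 in KO and 1.64 and 0.91 in WT. Neutrophil genes had a median of -3.69 in KO and -0.74 in WT, with S100a9 at -7.90 in KO and -5.14 in WT (limma adjusted p = 0.240 for the interaction). Slamf1 was not above background in fetal liver KO (limma adjusted p = 0.231 for the interaction).

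Of the 16 interferon-stimulated genes that passed in WT 15 kept their sign in KO. The exception was Gbp6, at -1.60 and -1.45 in bone marrow KO and -0.85 in fetal liver KO, a KO difference of -0.67, where in WT it was at least 4.20-fold higher (limma adjusted p = 0.149 for the interaction). Atp8b5 was below background on all 3 KO arrays, with levels of -6.17 and -5.80 in bone marrow KO and -5.50 in fetal liver KO (limma adjusted p = 0.149 for the interaction). Cdkn1a differed by 0.15 in KO and 2.33 in WT (limma adjusted p = 0.286 for the interaction). A difference between the WT and KO contrasts did not pass for any of these.

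**Figure D5:**
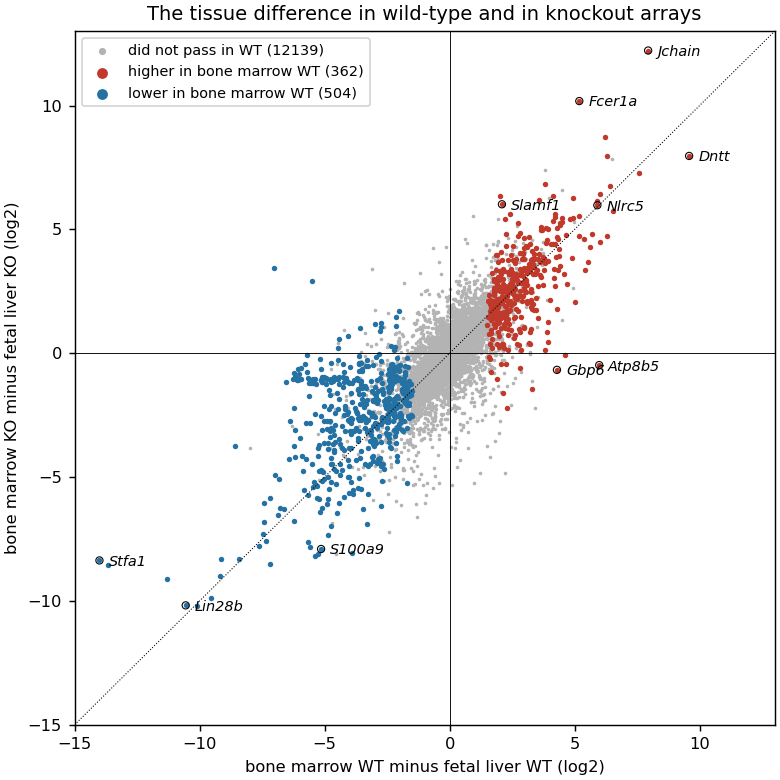
Level difference between bone marrow and fetal liver for each of 13005 genes in WT (x axis, log2) and in KO (y axis, log2), with the 362 higher and 504 lower genes of the WT contrast in red and blue and equality as a dotted line. Most coloured points lie in the lower left and upper right. The blue points strung out near -1 on the y axis are genes below background on the KO arrays, where the arrays' own limits set the difference.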

How the data were processed

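Gene expression of sorted KSL cells was read on 6 Agilent 1-colour mouse arrays, 3 of them wild type. From 10 ng of RNA, Cy3-labelled product was made, per the labels' protocols. The deposited scanner files give the intensity of each spot. Their software was, per the submitters' processing notes, Agilent Feature Extraction 10.7.1.1, and the signal used had its background removed, per the file headers. The authors' deposited table gives, for every probe on every array, a linear ratio. Set against the scanner intensities, this ratio was the signal over a constant near the 75th percentile of its array, so scale and direction are known and genes were not centred. The column of bone marrow WT replicate 1 could not be matched in this way, and its scale and direction rest on its agreement with replicate 2. Column medians were 0.057 and 0.063 for bone marrow WT replicates 1 and 2 and 0.07054 for fetal liver WT.

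Levels are log2 of the deposited ratio minus the log2 75th percentile of the array, without control spots. RefSeq accessions (GRCm38.p6) gave 26762 of 55681 probes a symbol, 20284 symbols in all, and the brightest probe stands for its gene. The build of the array's design is not given in the sources used here. A gene was tested where Agilent's flag put it well above background on each array of 1 tissue or both. For bone marrow WT replicate 1 a level of -3.7 took the flag's place, which matches 99.15% of the flags of the KO array on the same slide. Tests used limma 3.58.1 (lmFit, eBayes) in R 4.3.3 with its package data.table (1.17.8) over 4 group means, with 2 residual and 3.315 prior degrees of freedom and Benjamini-Hochberg adjustment. The script was tested on simulated data. Where no array of the dimmer tissue showed a probe, the bound sets the brighter mean against that array's lowest signal above background, or the probe's own signal if higher. The number of arrays limits the precision.

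The members and the 36 gene lists were chosen with earlier results of these data known. Named are Kit, Ly6a and Trim28, the 15 higher and 15 lower passing genes with the widest gap between the tissues, of each list up to 6 passing members in each direction by size (up to 3 where none passed), and every measured fetal programme, globin, cell cycle inhibitor and sex-linked gene. Camp, Fgg, H2-K1, H2-T23, H2-M3, H2-Aa, Tap2, B2m, Cd74, Gbp2, Gbp5, Gbp7, Cd34, Flt3, Procr, Gp9, Rab27b, Rag1, Ms4a2, Hdc, Cpa3, Egr1, Afp, Csta2, Cstdc6 and the genes of the last section were named after their values were seen. Alternatives covered the source of values, background correction, scaling, filter, probe choice, slide and each array.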

Additional observations from a re-analysis of the deposited data

How the results depend on the processing

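The count of 866 genes lay between 646 and 1027 without either bone marrow WT array. It stayed within 1.5 times with the slide as a random block, quantile or median scaling, the mean of probes, scanner files for 5 arrays and genes above background on fetal liver WT alone left out. It was 1839 from the 3 WT arrays, 321 with the filter on all arrays, 248 with no filter, 571 with the common floor and 41 with normexp, which compressed 5 arrays and not the table column of replicate 1. It was 1 with the scanner files of all arrays, replicate 1 included. Of the 807 WT calls tested there 793 had the same direction, and with normexp 804 of 866. The share of calls that were higher was 41.8%, and 25.4% with the common floor.

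The KO count of 1433 was 688 with the filter on all arrays, 495 with no filter, 104 with normexp and 1 with scanner files. The interaction count of 0 was 274 with the slide block, 88 with quantile normalization and 196 with the common floor. The slide correlation of 0.4724 came from a model of tissue plus genotype, since the 4-group design gave none. The cause of these moves was not tested.

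Setting 210 single-gene and list values against each alternative that held them gave 2864 comparisons, so each value counts many times. In 2243 comparisons the value kept its side of the threshold or moved within the replicate spread. In 411 it no longer passed and in 55 it newly passed. The other comparisons moved further (133) or turned sign (22). Signs turned with scanner files for Itga2b (-1.90), Procr (-1.14), Pf4 (-2.82), Gp5 (-0.39), Gp9 (-2.62), Rab27b (-0.59) and Ccr7 (0.35). They turned with normexp for Kit (0.051), Cd34 (0.12), Mecom (-0.33) and Hoxb3 (-0.012), with quantile normalization for Kit (0.10) and Cd34 (0.46), with the mean of probes for Cd34 (0.22), Flt3 (-0.14) and Cbx3 (-0.073), and with the common floor for Xist (0.13). Without either bone marrow WT array values ran from -0.42 to 0.18 for Cd34, -0.31 to 0.60 for Flt3, -5.85 to 2.53 for Xist, -5.89 to 1.58 for Ddx3y and -7.03 to 1.99 for Eif2s3y.

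No paired analysis was possible because the bone marrow WT and fetal liver WT groups share only replicate number 1. The files hold no mean signal, so normexp used the median signal. Signal over background, lower on the fetal liver array, limits what can be called among dim genes.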

Other observations

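Histone genes of one cluster, small X-linked adaptor genes and paired receptors were lower in bone marrow WT than in fetal liver WT. The runs were found by searching for at least 4 passing genes of one direction, with steps of at most 5 tested genes. Counts within a run are therefore high by construction and are a description, beside 3.88% lower over all tested genes. H1f4, a linker histone gene on chromosome 13, was at 6.23 and 5.76 in bone marrow and 8.45 in fetal liver and fell by 2.45 ± 0.48 (limma adjusted p = 0.0485). H2ac6, a core histone gene of the same cluster, fell by 3.63 ± 0.56 and H2bc3 fell by 2.17 ± 0.36 (adjusted p = 0.0254 and 0.0305). Of 15 tested genes along that stretch of the chromosome 6 were lower. Their KO differences were -2.19 for H1f4, -5.03 for H2ac6 and -2.18 for H2bc3. X-linked adaptor genes lay in a run where 5 of 7 tested genes were lower, and Bex1 fell by 1.79 ± 0.30, Bex2 fell by 2.89 ± 0.38 and Bex4 fell by 1.86 ± 0.32 (adjusted p = 0.0323, 0.0182 and 0.0340). Of the innate immune receptor genes on chromosome 7, Pirb fell by 2.35 ± 0.44, Lilra6 fell by 2.88 ± 0.43 and Pira2 fell at least 9.65-fold (adjusted p = 0.0435, 0.0238 and 0.0233). The Pirb difference was 0.28 in KO. The trypsinogen genes Prss1 and Prss2 on chromosome 6, background in bone marrow, fell at least 3.38-fold and 7.90-fold (adjusted p = 0.0223 and 0.00774).

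On the higher side, Socs3, a feedback inhibitor of cytokine signalling, was at 4.53 and 4.10 in bone marrow and -0.60 in fetal liver and rose by 4.91 ± 0.38 (adjusted p = 0.00842), and by 3.86 in KO. Histone, receptor and guanylate-binding genes of these runs are close relatives, and their probes may read each other's RNA. Cause was not tested for any of these runs, and neighbouring genes are not independent.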
